A study of Homo sapiens with 4 samples.

Results

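The transcripts described here are 10 genes that ERK, the last kinase of the RAS-RAF-MEK-ERK (MAPK) cascade, is known to induce and whose products mostly damp the cascade or carry its output: the phosphatase genes DUSP4, DUSP5 and DUSP6, the inhibitor genes SPRY2, SPRY4, SPRED1 and SPRED2, the transcription factor genes ETV4 and ETV5, and PHLDA1. They were chosen by name, with earlier results of these data known, and all 10 were among the 19626 genes of the deposited tables. RNA was sequenced from ES-2 cells, an ovarian cancer line labelled as clear cell carcinoma that carries an endogenous YAP1-MAML2 (YM) fusion and is known for an activated BRAF. All cells received pLKO.1 lentivirus, which carried either a non-targeting shRNA (shCtl, n = 2 biological replicates) or a single shRNA against MAML2 (shMAML2, the shM2-3 hairpin of the study, n = 2). That hairpin can act on the transcripts of both MAML2 and the fusion, which cannot be told apart in these values, and the labels place RNA isolation 96 h after the first infection. The comparison rests on 1 cell line and 1 hairpin. The comparison asks how much of each transcript was present once YM/MAML2 had been depleted.

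ERK signalling limits itself. Active ERK induces dual-specificity phosphatases that remove its activating phosphates, and Sprouty and SPRED proteins that act further up, on receptor and RAS signalling. ETV4 and ETV5 belong to the PEA3 group of ETS transcription factors and are among the transcripts most often read as a sign of ERK output. In cells with an activated BRAF the feedback genes are typically expressed at high levels.

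The estimated counts, which are the authors' reads per gene and need not be whole, summed to between 20051083 and 23978660 per library, with means 1.13 times higher in shMAML2 than in shCtl. MAML2 itself went from an RPKM (reads scaled by transcript length and library depth) of 8.44 ± 0.243 (SD, n = 2) in shCtl to 3.05 ± 0.0776 (SD, n = 2), so that 36.2% remained. Of the markers of the line, the epithelial genes summed to an RPKM of 637 and 636.5 in shCtl and of 312 and 316 in shMAML2, carried by KRT7, KRT8 and KRT18, whereas EPCAM and CDH1 had 0 to 6 counts. The mesenchymal genes VIM and CDH2 summed to 2909 and 3006 in shCtl and to 2081 and 2132 in shMAML2. The ovarian and clear cell genes PAX8, NAPSA and WT1 had 1 to 34 counts per library, each under an RPKM of 1, so these defining genes were at or near 0. Among genes of other cells, 4 leukocyte genes summed to 57.3 and 58.2 in shCtl and to 39.15 and 40.2 in shMAML2, nearly all of it CD68, with PTPRC at 0 to 3 counts. The 4 fibroblast genes summed to an RPKM of 0.259 to 0.455. The endothelial pair PECAM1 and VWF summed to 0.0666 and 0.116 in shCtl and to 1.32 and 0.923 in shMAML2. PECAM1 alone carried this, with 6 and 5 counts against 256 and 163, whereas VWF was lower, with 6 and 18 counts against 2 and 0. The part of these marker shifts in the results below was not tested.

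All 10 feedback output genes rose when YM/MAML2 was depleted. In edgeR's quasi-likelihood test, adjusted by Benjamini and Hochberg's method over the 12157 genes that exceeded an RPKM of 1 in some library, each stayed within the threshold of 0.05 and 6 of the 10 also reached a fold change of 2. Fold changes are given below as shMAML2 over shCtl, with SE for the standard error. The background was high: 36.3% of all genes tested passed the adjusted p upward and 36.4% downward. With the fold change limit of 2, 9.24% of genes were called higher and 8.93% lower, against 6 and 0 of the 10. The median log2 fold change of the 10 was 1.12, and that of all genes tested was -0.0037. In these bulk libraries a change in RNA per cell and a change in the share of cells that carry the RNA cannot be told apart.

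**Figure D1:**
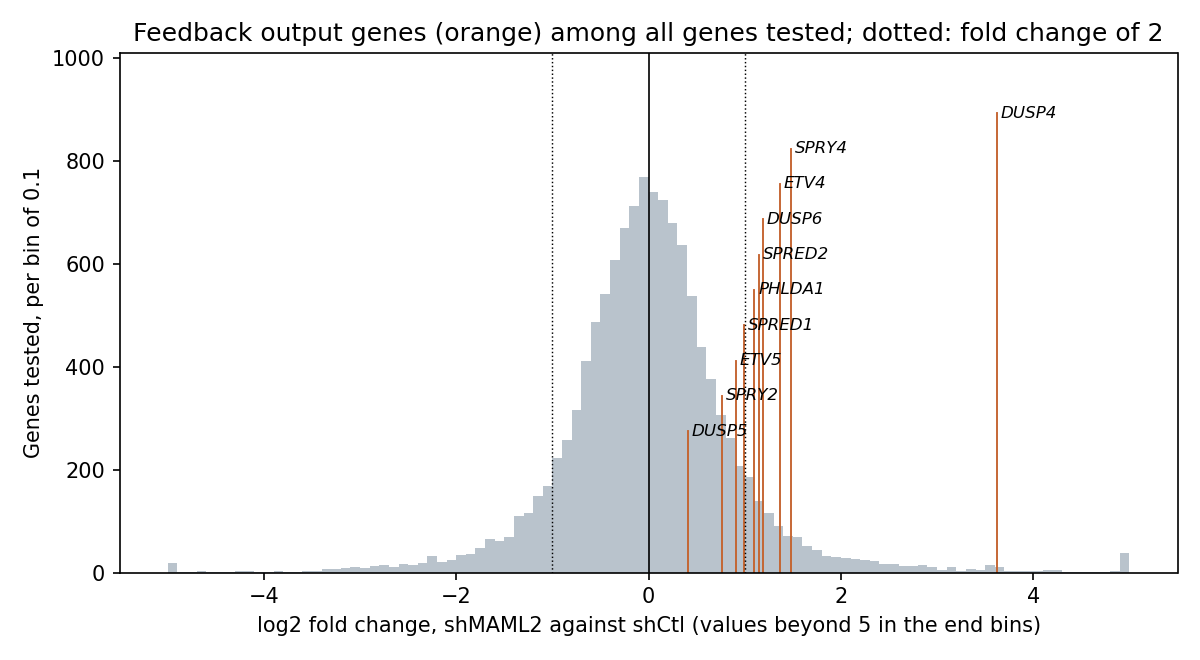
Histogram of log2 fold changes (shMAML2 against shCtl) over the 12157 genes tested, in bins of 0.1, with the 10 feedback output genes as orange lines whose heights only separate the names. All 10 lie to the right of 0, from DUSP5 at 0.41 to DUSP4 at 3.62.

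The phosphatases covered the full range of the 10. DUSP4, a nuclear MAPK phosphatase, had an RPKM of 3.53 and 3.66 in the shCtl libraries and of 41.9 and 42.5 in the shMAML2 libraries. The groups lay far apart, with a log2 fold change of 3.62 ± 0.0503 SE (adjusted p = 2.38e-15), a 12.3-fold rise that was the 84th highest of all genes tested. DUSP6, the cytoplasmic phosphatase that acts on ERK with high selectivity, was at 33.4 and 35.8 RPKM in shCtl and at 75.5 and 74.8 in shMAML2. Its log2 fold change was 1.18 ± 0.0451 SE (adjusted p = 3.60e-11). DUSP5, a nuclear phosphatase that also prefers ERK, stood at 26.9 and 31.1 RPKM in shCtl and 36.4 and 37.4 in shMAML2. The libraries of DUSP5 did not overlap, but its log2 fold change of 0.41 ± 0.0624 SE (adjusted p = 4.73e-05) was the smallest of the 10, and its control replicates differed by 13.8% of their mean in normalised counts, the widest gap among the 10.

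All 4 Sprouty and SPRED genes rose, by 0.76 to 1.48 on the log2 scale. SPRY4, an inhibitor of receptor-driven RAS activation, had an RPKM of 6.51 and 6.08 in shCtl and of 17.1 and 16.6 in shMAML2. This is a log2 fold change of 1.48 ± 0.0596 SE (adjusted p = 6.26e-11), the highest after DUSP4. Its relative SPRY2 was at 29.4 and 28.4 RPKM in shCtl and at 47.9 and 45.8 in shMAML2, which did not overlap, with a log2 fold change of 0.76 ± 0.0454 SE (adjusted p = 4.01e-09), under the fold change limit. For SPRED1, which brings the RAS inhibitor neurofibromin to the membrane, the values were 16.3 and 16.1 RPKM in shCtl and 31.2 and 30.3 in shMAML2. Its log2 fold change of 0.99 ± 0.0424 SE (adjusted p = 1.22e-10) stayed narrowly under the limit, which it passed without shMAML2 replicate 2 (1.01) and without shCtl replicate 1. SPRED2, of the same family, had 8.76 and 9.34 RPKM in shCtl and 18.4 and 19.9 in shMAML2. SPRED2 was called higher, with a log2 fold change of 1.15 ± 0.0615 SE (adjusted p = 1.34e-09).

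Both PEA3 factors and PHLDA1 rose, by 0.91 to 1.37 on the log2 scale. ETV4, the gene of the 10 with the fewest counts in every library (299 at the lowest), had an RPKM of 4.71 and 5.19 in shCtl and of 12.3 and 12.1 in shMAML2. The groups did not overlap, and the log2 fold change was 1.37 ± 0.0887 SE (adjusted p = 9.73e-09). ETV5 was at 14.1 and 15.0 RPKM in shCtl and 26.1 and 26.0 in shMAML2. ETV5 rose by a log2 fold change of 0.91 ± 0.0507 SE (adjusted p = 2.00e-09) and did not reach a fold change of 2. PHLDA1, which encodes a pleckstrin homology-like protein linked to the control of cell survival, was the most abundant of the 10, with an RPKM of 84.4 and 86.4 in shCtl and 174.5 and 175.1 in shMAML2. With 11686 to 29553 counts per library it was also the most precisely measured, and its log2 fold change was 1.10 ± 0.0358 SE (adjusted p = 6.86e-12).

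Since the 10 genes rose together, the sequence just before their starts was read for motifs of factors known to act at ERK or YAP1/TEAD targets. The RefSeq promoter table held 9 start sites of 6 of the genes (DUSP6, PHLDA1, SPRED1, SPRED2, SPRY2 and SPRY4), and the 250 bases before each start were searched on both strands. The letters were TGANTCA for AP-1, CCGGAA for ETS, TGACGTCA for the cAMP response element (CRE) and GGAATG for TEAD, with the serum response factor motif searched as the CArG box. ETS letters stood in 2 of the 9 windows, those of PHLDA1 and of the outermost SPRY2 start, against 14.5% of all 35116 windows in the table. None of the 9 held the AP-1, CRE, TEAD or CArG letters, which 6.57%, 1.65%, 11.9% and 1.16% of all windows held. This says only that those letters are not in these windows. The PHLDA1 and SPRY2 windows are shown because they hold the ETS match, in capitals (in PHLDA1 as its reverse complement TTCCGG, 89 to 84 bases before the start, and in SPRY2 as CCGGAA, 142 to 137 bases before it), and the DUSP6 window because DUSP6 is the most abundant phosphatase transcript after depletion. The windows, read 5′ to 3′ on the minus strand, are chr12:76031777-76032026 for PHLDA1, chr13:80341127-80341376 for SPRY2 and chr12:89352502-89352751 for DUSP6.
PHLDA1: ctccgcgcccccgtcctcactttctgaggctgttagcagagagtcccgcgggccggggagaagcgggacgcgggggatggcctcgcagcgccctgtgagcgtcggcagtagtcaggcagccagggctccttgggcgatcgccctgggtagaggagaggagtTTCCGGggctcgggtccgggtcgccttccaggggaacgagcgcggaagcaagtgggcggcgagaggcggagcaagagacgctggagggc
SPRY2: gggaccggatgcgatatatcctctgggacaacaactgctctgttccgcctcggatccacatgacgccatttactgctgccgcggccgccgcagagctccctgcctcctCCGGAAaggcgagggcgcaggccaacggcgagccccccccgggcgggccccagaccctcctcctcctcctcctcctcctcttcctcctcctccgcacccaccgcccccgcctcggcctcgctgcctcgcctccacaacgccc
DUSP6: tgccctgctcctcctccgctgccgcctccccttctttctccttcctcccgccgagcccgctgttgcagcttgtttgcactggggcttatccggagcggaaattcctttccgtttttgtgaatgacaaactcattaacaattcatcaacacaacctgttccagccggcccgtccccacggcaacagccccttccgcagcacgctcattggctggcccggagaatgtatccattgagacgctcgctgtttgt

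For each of the 10, both shMAML2 libraries lay above both shCtl libraries in RPKM, as was the case for 38.9% of all genes tested. Over the 4 pairings of a shMAML2 with a shCtl library, the RPKM ratio of DUSP4 was never below 11.4, and that of the other 9 genes ranged from 1.17 to 2.81. On the log2 scale the ratios of mean RPKM differed from the fitted fold changes by a median of -0.0661 over the 10. RPKM and edgeR scale the libraries differently, and the part of this in the difference was not tested.

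**Figure D2:**
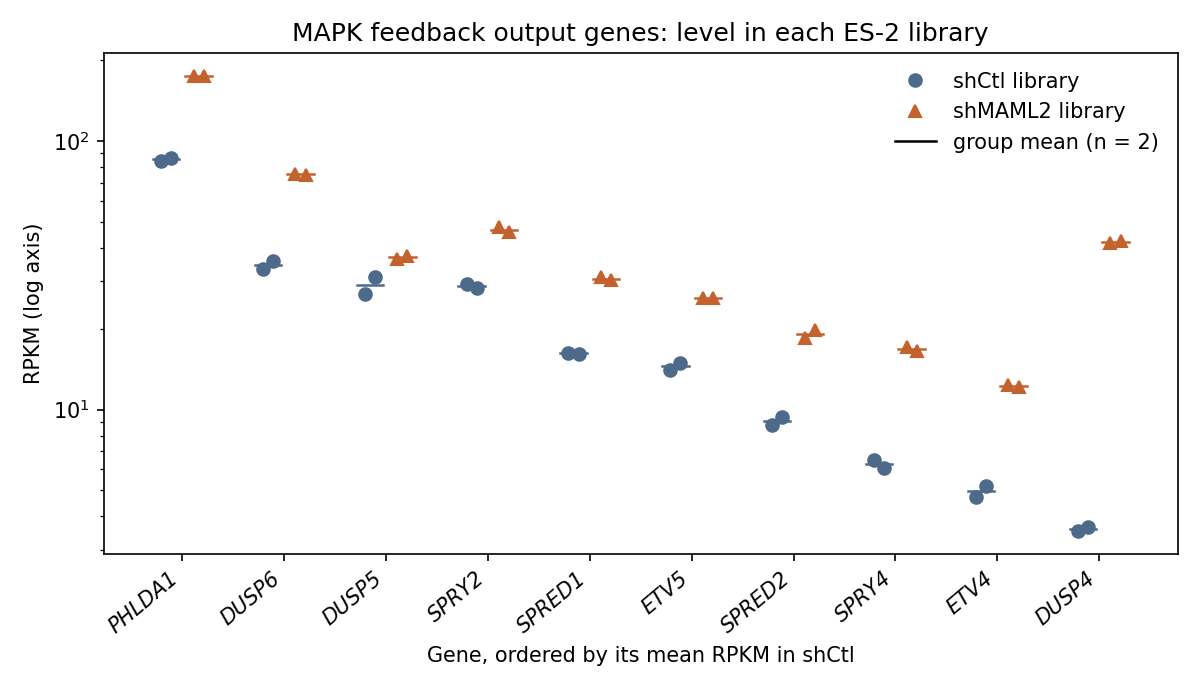
RPKM on a log axis in each library for the 10 genes, ordered by their mean in shCtl, with circles for shCtl, triangles for shMAML2 and lines for group means (n = 2). Triangles lie above circles for every gene, closest for DUSP5 and farthest apart for DUSP4, which is the lowest gene in shCtl at 3.60 and lies at 42.2 in shMAML2.

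The order of the levels was the same in both groups apart from DUSP4 and an exchange of DUSP5 and SPRY2. In shCtl the mean RPKM ran from PHLDA1 (85.4) through DUSP6 (34.6), DUSP5 (29.0), SPRY2 (28.9), SPRED1 (16.2), ETV5 (14.5), SPRED2 (9.05), SPRY4 (6.29) and ETV4 (4.95) to DUSP4 (3.60). Only DUSP5 and SPRY2 overlapped between libraries there. In shMAML2 DUSP4 was the 4th of the 10, between SPRY2 (46.8) and DUSP5 (36.9), ETV4 (12.2) was the lowest, and no neighbours overlapped. The genes with the lowest control levels (DUSP4, ETV4 and SPRY4) had the highest log2 fold changes, though the control level is itself the denominator of a fold change. This order did not continue: the most abundant genes, PHLDA1 (1.10) and DUSP6 (1.18), rose more than SPRED1 (0.99) and ETV5 (0.91). The ratio of the highest to the lowest gene was 23.9 and 23.6 in shCtl, where DUSP4 was lowest. It was 14.1 and 14.5 in shMAML2, where ETV4 was lowest. Summed over the 10, the RPKM was 228 and 237 in shCtl and 481 and 480 in shMAML2.

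Relatives of these genes show how far the rise extended within each family. The list held 13 genes, of which 12 were in the tables and 9 were tested: 5 passed upward, 3 passed downward and 1 did not pass. Over all genes tested, 36.3% passed upward and 36.4% downward, and 9.24% were called higher and 8.93% lower. SPRED3 (log2 fold change 1.24), ETV1 (1.44 ± 0.0520 SE), PHLDA2 (1.39 ± 0.0926 SE) and PHLDA3 (1.16 ± 0.164 SE) rose 2-fold or more, with adjusted p between 2.14e-11 for ETV1 and 2.43e-05 for PHLDA3. With them, all 3 SPRED genes, all 3 PEA3 genes and all 3 PHLDA genes rose. On the log2(RPKM + 1) scale SPRED3 (0.91) and PHLDA3 (0.80) were under the fold change limit. SPRY1 was at 4.84 and 5.42 RPKM in shCtl and 4.80 and 5.86 in shMAML2, which overlap (log2 fold change 0.12 ± 0.120 SE, adjusted p = 0.391). SPRY3, with 80 counts in shCtl replicate 1 and 0 or 1 in the other libraries, was too low to be tested, as were DUSP8 and DUSP9, and DUSP2 was not analysed here.

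**Figure D3:**
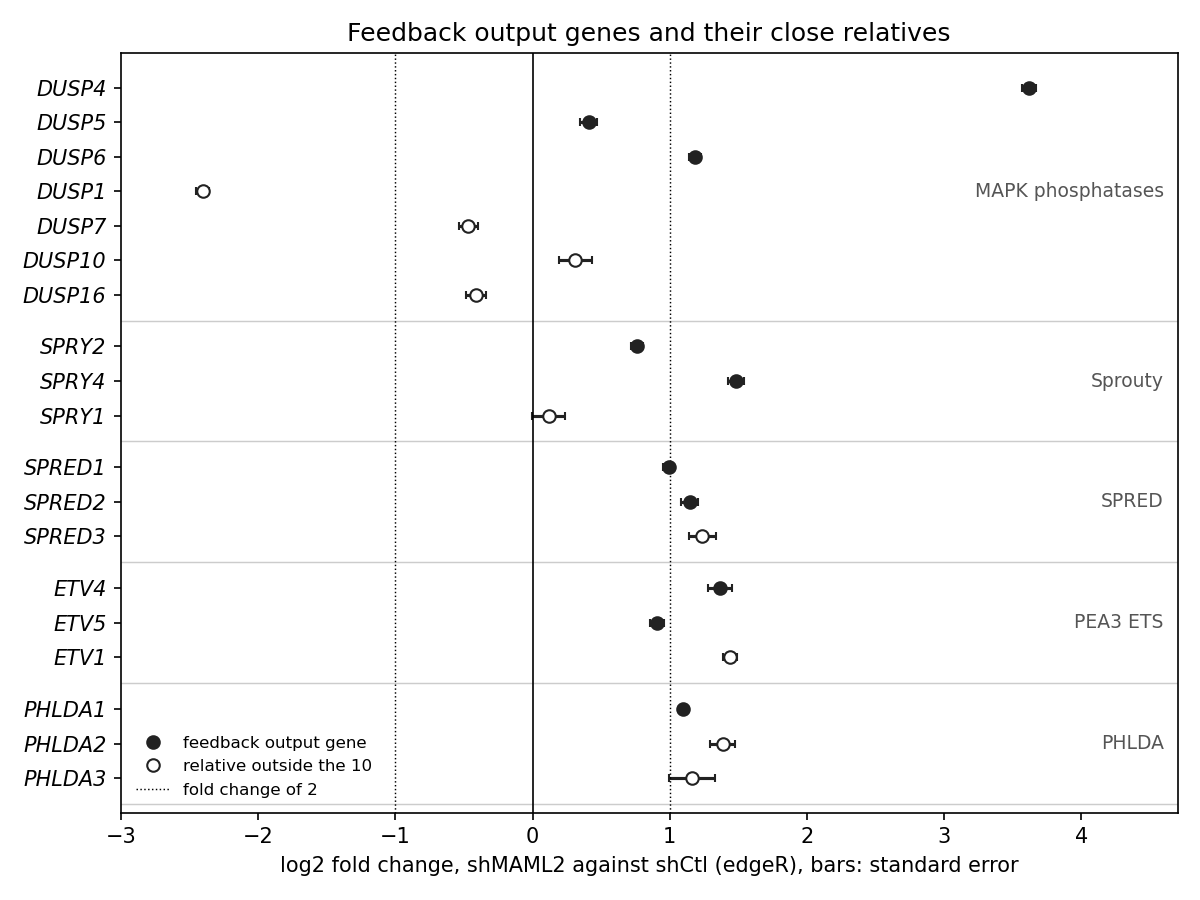
Fitted log2 fold changes (shMAML2 against shCtl) with standard errors for the 10 feedback output genes (filled) and their tested relatives (open), by family, with dotted lines at a fold change of 2. The SPRED, PEA3 and PHLDA genes lie together between 0.91 and 1.44, whereas the phosphatases run from -2.40 for DUSP1 to 3.62 for DUSP4.

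The MAPK phosphatases did not move as a block. DUSP1, the immediate-early phosphatase that also acts on the stress kinases p38 and JNK, fell from 126 and 125 RPKM in shCtl to 22.0 and 23.3 in shMAML2. Its log2 fold change was -2.40 ± 0.0487 SE (adjusted p = 5.93e-14), a 5.29-fold fall in the same libraries in which DUSP4 rose 12.3-fold. DUSP7, a cytoplasmic ERK phosphatase, and DUSP16, which prefers the stress kinases, fell by 0.47 and 0.41 on the log2 scale (SE 0.0697 and 0.0712). DUSP10, which also prefers the stress kinases, had a log2 fold change of 0.31 ± 0.120 SE (adjusted p = 0.0319), and did not pass the adjusted p in 7 of 11 alternatives.

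These opposite movements changed the make-up of the phosphatase transcripts more than their sum. Over the 9 MAPK phosphatase genes in the tables (DUSP1, DUSP4 to DUSP10 and DUSP16), the summed RPKM was 212 and 218 in shCtl and 194 and 195 in shMAML2, a ratio of 0.904. DUSP1 held 58.5% ± 1.39 (SD, n = 2) of that sum in shCtl and 11.7% ± 0.413 (SD, n = 2) in shMAML2. DUSP4, DUSP5 and DUSP6 together held 31.2% ± 1.63 (SD, n = 2) and 79.3% ± 0.0169 (SD, n = 2), with DUSP6 the largest single share in shMAML2 (38.7%). There were 9.46 and 9.79 DUSP6 transcripts per DUSP4 transcript, by RPKM, in shCtl and 1.80 and 1.76 in shMAML2. The sums and shares are descriptions, with no test. Sums of the other families were all higher in shMAML2: the Sprouty sum was 1.71 times, the SPRED sum 2 times, the PEA3 sum 2.13 times and the PHLDA sum 2.11 times that of shCtl.

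**Figure D4:**
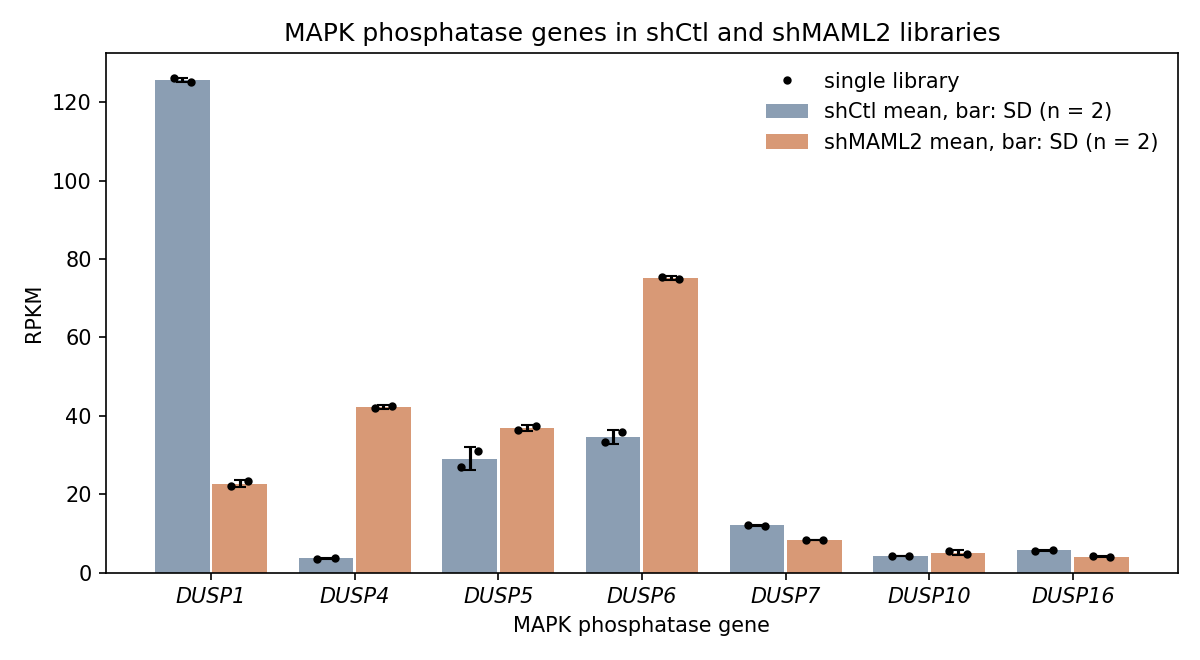
Mean RPKM of the 7 tested MAPK phosphatase genes in shCtl (blue) and shMAML2 (orange), with SD (n = 2) and each library as a dot. DUSP1 drops from 126 to 22.7, DUSP4 rises from 3.60 to 42.2 and DUSP6 from 34.6 to 75.1.

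The transcripts of the cascade itself moved less than most of its feedback genes. BRAF fell by 0.27 on the log2 scale (0.0577 SE), the MEK genes MAP2K1 and MAP2K2 fell by 0.50 and 0.24, and MAPK3, which encodes ERK1, fell by 0.57. The adjusted p of these 4 genes was at most 0.000958, and none approached a fold change of 2. NRAS (0.41) and ARAF (0.43) rose, and HRAS (0.23, adjusted p = 0.110) did not pass. In the list of 20 cascade genes, 19 were tested: 8 passed upward, 6 passed downward and 5 did not pass. Over all genes tested, the shares were 36.3% upward and 36.4% downward. The median of the 19 was 0.14, and no gene was past a fold change of 2. The highest was LAMTOR3, a scaffold for MEK and ERK, at 0.96, and the lowest was MAPK3. LAMTOR3 passed the fold change limit in 2 of 11 alternatives, without shCtl replicate 1 (1.08) and without shMAML2 replicate 1. These libraries measure mRNA, so kinase activity and ERK phosphorylation were not read.

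**Figure D5:**
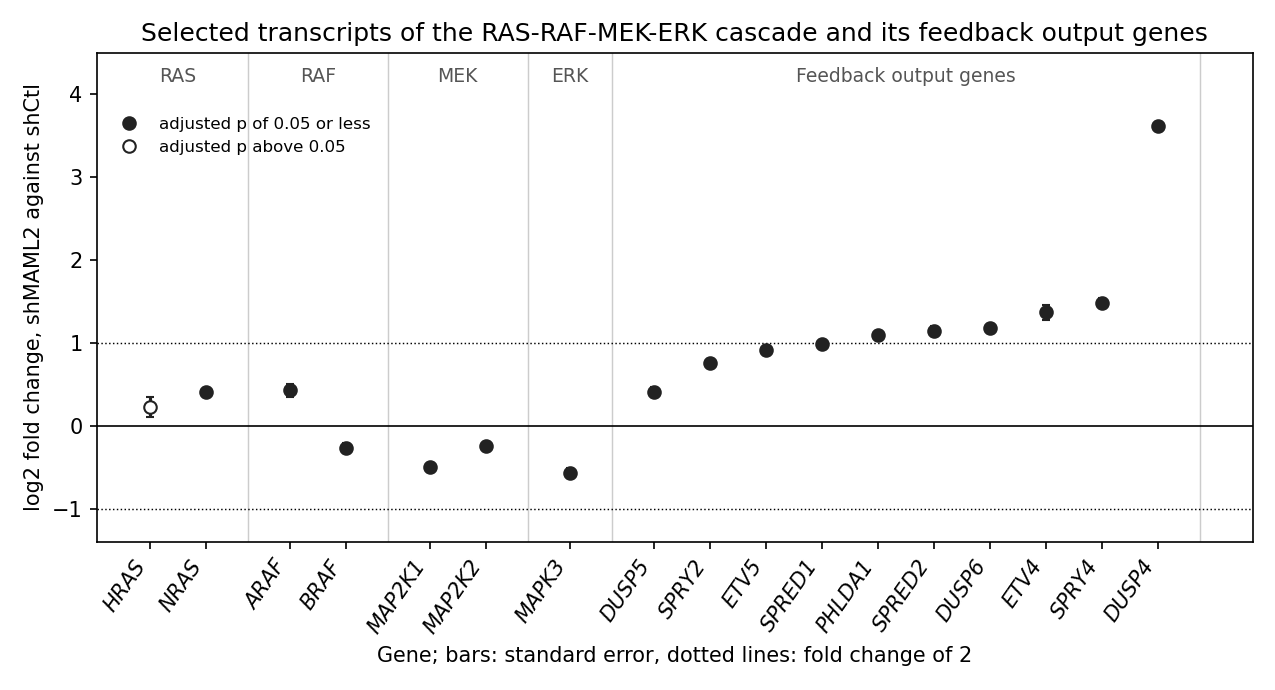
Fitted log2 fold changes (shMAML2 against shCtl) with standard errors for 7 RAS, RAF, MEK and ERK genes and for the 10 feedback output genes, filled where the adjusted p was 0.05 or less. BRAF, MAP2K1, MAP2K2 and MAPK3 lie between -0.57 and -0.24, and the feedback output genes between 0.41 and 3.62.

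Genes that regulate RAS moved in both directions. Of 18 adaptors, exchange factors and inhibitors, 16 were tested: 8 passed upward, 3 passed downward and 5 did not pass, with a median of 0.17. Over all genes tested, 36.3% passed upward and 36.4% downward. The highest was FRS2, the docking protein of FGF receptors, which rose from 2.05 and 2.20 RPKM to 4.62 and 4.57 (log2 fold change 1.18 ± 0.0850 SE). The lowest was RASA2, a GTPase-activating protein for RAS, which went from 5.14 and 5.80 RPKM to 2.30 and 2.66 (log2 fold change -1.08 ± 0.102 SE). FRS2, RASA2 and RASA3, another GTPase-activating protein (log2 fold change 1.04), were the 3 called genes of this list. Over all genes tested, 9.24% were called higher and 8.93% lower. On the log2(RPKM + 1) scale FRS2 (0.84), RASA2 (-0.90) and RASA3 (0.90) were all under the fold change limit. RASA3 was past it in 9 of 11 alternatives, also missing it on log2(RPKM + 0.1), and RASA2 in 8, also missing it without shCtl replicate 2 and without shMAML2 replicate 1.

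Other ERK-induced genes were not uniformly higher. All 13 of that list were tested: 8 passed upward and 5 downward, with a median of 0.79. Over all genes tested, 36.3% passed upward and 36.4% downward. EGR2, EGR3, IER3, LIF and KCNN4 were called higher, from 1.12 for IER3 to EGR3, and FOSL1 was called lower. EGR2 (6 and 10 counts in shCtl, 170 and 164 in shMAML2) and EGR3 exceeded an RPKM of 1 only in shMAML2. Both entered the test only through the group in which they were higher, so their direction was fixed beforehand. The counts and the median of this list include them. The log2 fold change of EGR2 ranged from 1.41 to 4.62 over the alternatives. The called shares of all genes tested were 9.24% higher and 8.93% lower. CCND1 (cyclin D1) rose from 125 and 124 RPKM to 212 and 214, a log2 fold change of 0.84 ± 0.0358 SE, and EPHA4, an ephrin receptor gene, rose by 0.79 ± 0.0644 SE. EPHA2, of the same receptor family, fell by 0.62 ± 0.0418 SE, and FOSL1, an AP-1 subunit gene, had the lowest value of the list at -1.53 ± 0.0393 SE. EGR1, an immediate-early transcription factor gene, was at 89.6 and 93.1 RPKM in shCtl and 80.8 and 78.8 in shMAML2, and its log2 fold change of -0.13 had an adjusted p of 0.0113 that was 0.101 without shCtl replicate 2. EGR3, its relative, held the highest value of the list (log2 fold change 5.76 ± 0.506 SE). The reads of EGR3 numbered 0 and 5 for shCtl and 162 and 151 for shMAML2, and the value ranged from 1.13 to 10.24 over the alternatives.

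The 10 genes lie on 9 chromosomes. In RefSeq coordinates (GRCh38.p14), DUSP6 spans 89347235 to 89352501 and PHLDA1 76025447 to 76031776 on chromosome 12, SPRY2 80335976 to 80341126 on chromosome 13, SPRY4 142310430 to 142325021 on chromosome 5, SPRED1 38252836 to 38357249 on chromosome 15, SPRED2 65307175 to 65432599 on chromosome 2, ETV4 43527846 to 43546340 on chromosome 17, ETV5 186046314 to 186109089 on chromosome 3, DUSP5 110497907 to 110511533 on chromosome 10 and DUSP4 29333064 to 29350684 on chromosome 8. The libraries carry no strand, so reads of overlapping genes cannot be separated by strand, and only whole gene spans were compared here. ETV4 shares 16954 bases with the annotated span of DHX8, a helicase gene with 802 and 797 counts (shCtl) against 1437 and 1259 (log2 fold change 0.61 ± 0.0652 SE), and the share of ETV4 reads that could belong to DHX8 was not tested. SPRY4 contains SPRY4-IT1, which had 10 to 55 counts, and DUSP6, ETV5 and PHLDA1 overlap annotated read-through or noncoding genes that were not analysed here. No overlapping gene was found for DUSP4, DUSP5, SPRY2, SPRED1 or SPRED2.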

How the data were processed

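RNA-seq of ES-2 cells with shCtl (2 libraries) or shMAML2 (2 libraries) was analysed. The authors aligned 150-base paired reads to hg38 with HISAT2 2.0.4, dropped ambiguous and poorly mapped reads and quantified RefSeq transcripts in Partek 7.18 (tools and build also per the labels). They deposited estimated counts, not normalised, and RPKM, both for the same genes. The labels give 96 h from the first infection, and the paper's methods give a shorter time.

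Estimated counts were rounded (the design had also allowed for whole counts) and fitted by edgeR 4.0.16 under R 4.3.3 (TMM, estimateDisp, glmQLFit, glmQLFTest, no block), keeping the genes that exceeded an RPKM of 1 in some library. Genes passed when the p adjusted by Benjamini and Hochberg's method was at most 0.05 and were called when the fold change was also 2 or more. The standard error is the log2 fold change divided by the square root of F. An SD over 2 libraries is imprecise, p-values measure the spread between these libraries, and an exact permutation test of 2 against 2 cannot reach 0.05. Counting error was at most 5.78% of a count for the 10 genes. Replicates differed by more than sampling noise (chi-square per degree of freedom 3.44 and 3.98). Alternatives used DESeq2 1.42.0 and limma 3.58.1 on log2(RPKM + 0.1) and log2(RPKM + 1).

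The 10 genes and all lists were chosen with earlier results of these data known. Named were the 10 genes, MAML2, their relatives, BRAF, MAP2K1, MAP2K2, MAPK3, CCND1, EPHA2, EPHA4, EGR1 and the lowest and highest gene of each list. NRAS, HRAS, ARAF, RASA3, EGR2, IER3, LIF, KCNN4, DHX8 and the genes under other observations were named after their values were seen. Some genes of these lists are counted but not reported by name here. Positions and promoter windows come from RefSeq tables of GRCh38.p14, the same build as hg38.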

Additional observations from a re-analysis of the deposited data

How the results depend on the processing

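Over 11 refits (DESeq2, total counts, no filter, filterByExpr, limma with either pseudocount, the replicate number as a block, and each of the 4 libraries left out in turn), all 110 values of the 10 genes were positive and passed the adjusted p. The weakest was DUSP5, at 0.31 without shCtl replicate 1 and 0.51 without shCtl replicate 2, with a largest adjusted p of 0.00481 (limma on log2(RPKM + 0.1)). In each refit 6 of the 10 were called higher, except that SPRED1 made it 7 without shCtl replicate 1 and without shMAML2 replicate 2. With a fold change limit of 1.5, 9 were called, and over all genes 2302 were lower and 2296 higher, against 1086 and 1123 at 2. The median log2 fold change of the 10 was 1.05 on log2(RPKM + 0.1) and 1.01 on log2(RPKM + 1), where 596 genes were called higher. In these fits the median of all genes was -0.0683 and -0.0588, against -0.0037 in the edgeR fit, and the cause was not tested. The median was 1.10 without DUSP4, a check chosen after seeing the data.

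Same-numbered libraries showed no shared deviation, with r = -0.0228 over 12024 genes with a mean of 20 or more counts. This cannot show whether they were handled as pairs. With the number as a replicate block, 1079 genes were called lower and 1123 higher, 6 of the 10 genes were called, and their median was 1.12. The counts of the 10 genes, from 299 to 29553 per library, leave depth no limit on their direction.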

Other observations

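Dual-specificity phosphatase genes outside the MAPK phosphatase list, most of them without a MAPK-binding domain, had no common direction. Among 12 such genes, 9 were tested: DUSP28, DUSP18 and DUSP12 rose, DUSP22, DUSP11, DUSP14, DUSP3 and DUSP23 fell, and DUSP19 did not pass. Over all genes tested, 36.3% passed upward and 36.4% downward. DUSP3 fell by 0.73 ± 0.0691 (standard error, SE) and DUSP23 fell by 1.02 ± 0.233 SE on the log2 scale, and DUSP28 rose by 1.04 ± 0.265 SE. Against these, the rise of DUSP4 stands at 3.62.

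At the SPRY4 locus on chromosome 5 the noncoding genes were read at few counts. SPRY4-IT1, which lies within SPRY4, rose from 17 and 10 counts to 55 and 49 (log2 fold change 1.79 ± 0.443 SE, adjusted p = 0.00253 in the edgeR fit). The libraries carry no strand, and the share of SPRY4-IT1 reads that could belong to SPRY4 (log2 fold change 1.48 ± 0.0596 SE) was not tested. SPRY4-AS1, which was not found to overlap SPRY4, had a log2 fold change of 1.60 ± 0.716 SE (adjusted p = 0.0593 in the edgeR fit). Over 11 alternatives its value ranged from 0.72 to 3.23. SPRY4-AS1 passed the adjusted p in only 4 of these 11. It did not pass with DESeq2, total counts, no filter or the replicate block, and the other alternatives it did not pass each left out 1 library. These genes were chosen after their values were seen.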
